A study of Homo sapiens with 6 samples.

Results

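DEAD box and DEAH box proteins are RNA helicases named after the amino acids of a conserved motif in their ATPase core. The genes described here are the 54 GENCODE protein-coding genes, of 20046 in all, whose symbol is DDX or DHX followed by a number and at most 1 letter. The rule uses only names and no measured value, but the family was picked for description with earlier results of these data known. Their mRNAs were followed in 5 IR-PAR-CLIP libraries made with an antibody to IGF2BP3 and in 1 library made with IgG. IR-PAR-CLIP is a crosslinking and immunoprecipitation method in which cells take up 4-thiouridine and are irradiated at 365 nm, so that crosslinked uridines are read as T-to-C conversions. The antibody against IGF2BP3 partly recognises the paralog IGF2BP2, so every result is about RNA recovered with this antibody.

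All 6 libraries came from HCT116, a human colorectal carcinoma line, of the genotype Tet-OsTIR1-PURO, labelled with 100 µM 4-thiouridine for 15 h. OsTIR1 is a plant F-box protein used to degrade tagged proteins, and every library carried it. Conditions differed in the RNase and in its concentration in the lysate and on the beads, written here as in-lysate/on-beads in U/µL. They were RNase I 0.1/0.025, RNase I 0.05/0.05, RNase I 0.05/0.025, RNase T1 1/1 and RNase T1 0.25/0.25 with the IGF2BP3 antibody, and RNase I 0.1/0.025 with IgG. RNase I cuts after any base and RNase T1 after G. RNA of RNase I 0.05/0.05 and RNase T1 1/1 was recovered from the gel by electroelution and that of the other conditions from crushed gel. With 1 library per condition no test between conditions was possible, and all intervals cover counting error only.

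DEAD box proteins open short duplexes or remodel RNA-protein complexes locally, and DEAH box proteins move along an RNA strand and pull complexes apart. The family acts at every step of an mRNA's life, from transcription, splicing and export to translation, storage and decay, and it drives much of ribosome assembly. IGF2BP3 is an oncofetal RNA-binding protein that binds mainly the 3′UTRs of mRNAs and is associated with their stability. Several helicases, among them DDX6 and DDX3X, share cytoplasmic granules with mRNAs that such proteins bind. No input RNA was measured, so more bound RNA and more of the mRNA in the cell cannot be told apart.

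IGF2BP3 clusters, the stretches of overlapping reads that carry conversions, shared at least 20 nt between all 5 IGF2BP3 libraries on 9 helicase mRNAs. Clusters of the 5 IGF2BP3 libraries were merged into 308 sites on 40 helicase mRNAs, and 16 sites on 10 mRNAs held a cluster in all 5. That was 5.19% of the helicase sites. Sites of other genes were not merged here, so this share cannot be called high or low. The run covered in all 5 libraries was only 4 nt long at the DDX47 site and 10 nt at a second DHX33 site. The stretches below are the centre of the longest run covered in all 5 libraries, cut to at most 30 nt, and all that reached 20 nt are shown because they are the positions where both enzymes and all concentrations coincided. They are written 5′ to 3′ as DNA, as the clusters are, with the tetramers CATT and CAGT (CAUU and CAGU in RNA) in capitals.
DDX21 3′UTR, upstream site: ttatttcatctgatCATTatCATTtataac
DDX6 3′UTR, upstream site: CATTtcaacttctccctgattcctcatccg
DDX6 3′UTR, downstream site: atggaataCATTtattctaaaatg
DDX5 3′UTR: tttctctaCATTcctgaaacaatttttag
DHX15 3′UTR: ttcCATTctgatttcataaattaaaCATTt
DHX15 coding exon 2: cagcaCATTcaacgCATTcaacaCATTctg
DHX33 3′UTR: tttcacaataaCATTgcaatataatcttca
DDX17 3′UTR: ttttcacttttcctccatctgaaggtaggt
DDX24 3′UTR: tctcttccactcacacccatagcgggagag
DDX21 3′UTR, second site: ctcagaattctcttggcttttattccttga
DDX21 3′UTR, downstream site: acttcacataacttaaaacatggctatttc
DDX3X 3′UTR: gtaaatacagcaattcctctttcaacg
DHX15 coding exon 6: gtattctacacttccacctcag
DHX40 3′UTR: tacaattttgctggccttaactg

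In GRCh38 these stretches lie on the plus strand at chr10:68982968-68982997, chr10:68984433-68984462 and chr10:68984765-68984794 for DDX21, at chrX:41348455-41348481 for DDX3X and at chr17:59607438-59607460 for DHX40, and on the minus strand at chr11:118751690-118751719 and chr11:118749036-118749059 for DDX6 and chr17:64499739-64499767 for DDX5. The DHX15 stretches lie at chr4:24527756-24527785 in the 3′UTR and at chr4:24576458-24576487 in exon 2 and chr4:24548918-24548939 in exon 6 of the coding sequence, all on the minus strand. Those of DHX33, DDX17 and DDX24 lie at chr17:5441517-5441546, chr22:38484700-38484729 and chr14:94051049-94051078, all on the minus strand. Of these 14 stretches 7 held CATT, none held CAGT and 7 held neither. The exon 2 stretch of DHX15 held CATT 3 times within 30 nt.

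The 5 IGF2BP3 libraries held 13568 to 90999 clusters with 182448 to 2362467 cluster reads, and 39 to 298 of these clusters lay on helicase exons. Helicase clusters took 0.228% to 0.347% of the cluster reads, which were 416 reads in RNase T1 0.25/0.25, 1695 in RNase I 0.05/0.025, 2060 in RNase I 0.1/0.025, 4019 in RNase T1 1/1 and 7279 in RNase I 0.05/0.05. The IgG library held 25 clusters with 324 reads and none on a helicase, and 0 of 324 reads allows a share of up to 0.926%, above the share that helicases had in any IGF2BP3 library. Clusters were found on 6 of 8 epithelial and colorectal marker genes, with none on CDX1 and VIL1, and on none of 6 markers of other cells.

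The mRNAs of 9 helicases met the target rule in all 5 IGF2BP3 libraries. A target had at least 1 cluster with more than 10 reads per 1000000 cluster reads of its library (CPM) and more than 0.5 conversion events per read. The 9 were DDX3X and DDX6 (cytoplasmic mRNA), DDX5 and DDX17 (transcription and processing), DHX15 (spliceosome) and DDX18, DDX21, DDX24 and DHX33 (ribosome biogenesis). They were 9 of 54 helicases, where 9.91% of all protein-coding genes were targets in all 5 libraries. That background includes genes without any cluster. Among genes with a cluster in any IGF2BP3 library, 22.5% of helicases and 21.2% of all protein-coding genes were targets in all 5.

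Single libraries gave similar counts. Targets were 15 of 54 helicases with RNase I 0.05/0.05, where 21.9% of all protein-coding genes were targets, 15 with RNase I 0.1/0.025 against a background of 21.3%, and 18 with RNase I 0.05/0.025 against 22.0%. With RNase T1 they were 14 in the 1/1 library, with a background of 19.6%, and 12 in the 0.25/0.25 library, with 13.7%. In the 0.25/0.25 library 10 CPM was 1.82 reads, so that any cluster passed and only the conversions decided, whereas it was 23.6 reads in RNase I 0.05/0.05. With at least 20 reads in place of the CPM threshold the 0.25/0.25 library kept 1 helicase target, and 1 helicase was a target in all 5 libraries. By this setting 2.52% and 2.23% of all protein-coding genes were targets, respectively.

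Across helicases, 23 were a target in at least 1 library, 17 had clusters but never passed and 14 had no cluster. Over all protein-coding genes 46.7% had a cluster and 29.5% were a target in at least 1 library. Of those with a cluster, 57.5% of helicases and 63.3% of all genes were a target at least once. DDX47, DDX55 and DHX40 were targets in 4 libraries, DDX23 and DDX41 in 3, and DDX20 and DDX54 in 2. DDX1, DDX46, DDX50, DDX52, DDX56, DDX60L and DHX9 were targets in 1. Helicases with a cluster that were not targets mostly lacked any cluster above 10 CPM, and at most 2 per library failed on the conversions. In RNase T1 0.25/0.25 both that failed, DDX50 and DHX40, did so on the conversions. Per kb of annotated exon, the median helicase with a cluster had 3.37 CPM with RNase I 0.05/0.05, where the median gene with a cluster had 6.19, and 3.37 CPM with RNase T1 1/1, where the median gene had 7.17.

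**Figure D1:**
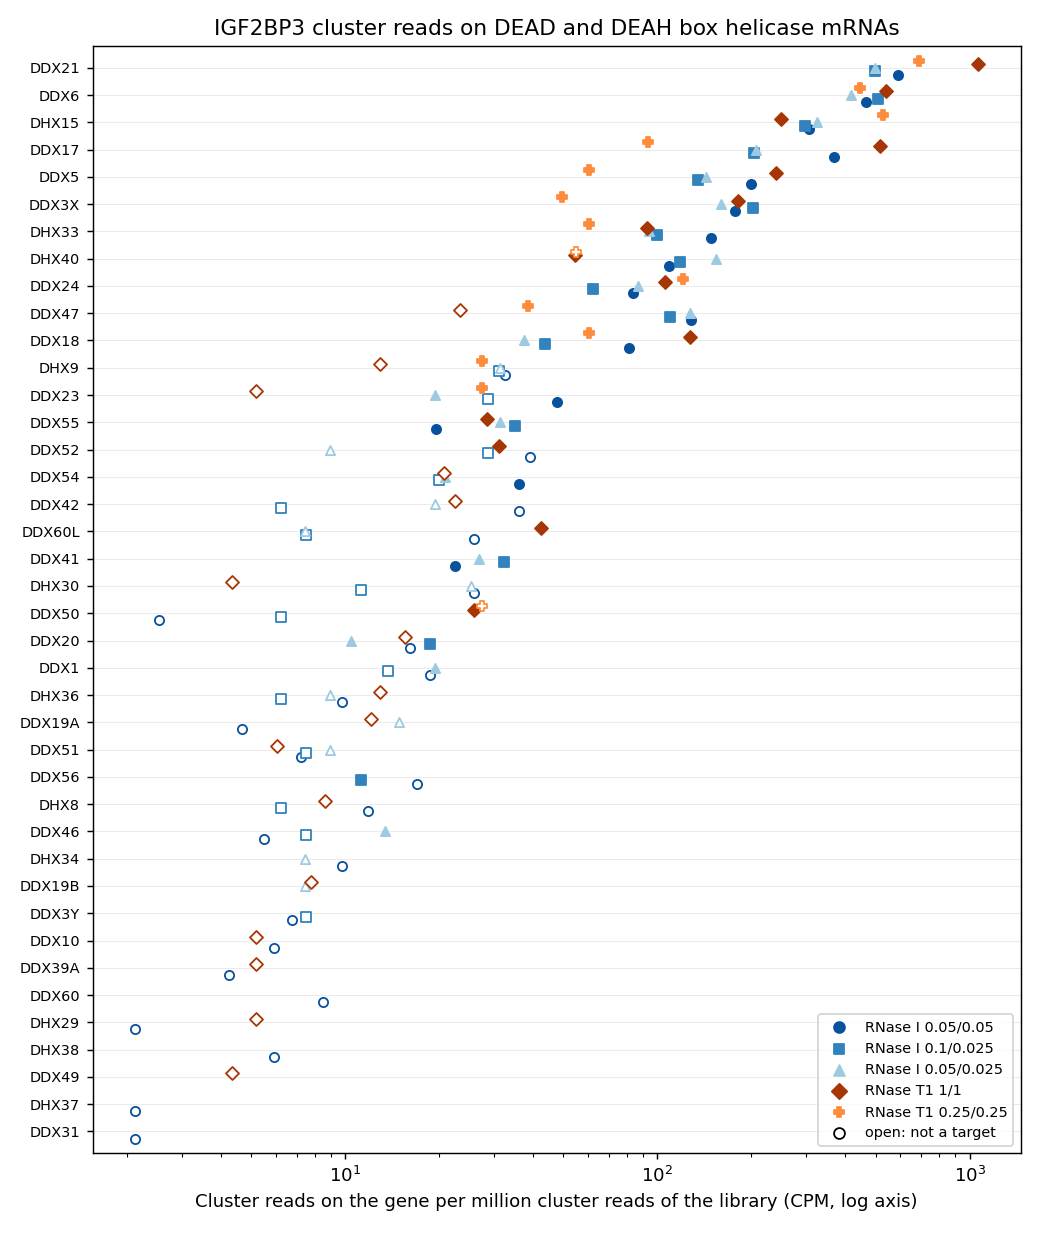
CPM (log axis) of the 40 helicase mRNAs with a cluster, 1 symbol per IGF2BP3 library, filled where the gene was a target; a missing symbol means no cluster. DDX21, DDX6, DHX15 and DDX17 lie at the top, and below about 20 CPM most symbols are open.

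Among helicases of ribosome biogenesis, 15 of 16 had a cluster and 10 were targets in some library, where 46.7% and 29.5% of all protein-coding genes did so. DDX21, a nucleolar helicase that acts in rRNA transcription and processing, had 588.8, 499.1 and 498.0 CPM in the RNase I 0.05/0.05, 0.1/0.025 and 0.05/0.025 libraries and 1066 and 690.6 CPM in the RNase T1 1/1 and 0.25/0.25 libraries. It was higher in both RNase T1 libraries, and the RNase I libraries lay close together. Per kb of exon it had 63.5 CPM with RNase I 0.05/0.05 and 115 with RNase T1 1/1, the highest of the helicases in both. The gene is ENSG00000165732 at chr10:68956135-68985068, with a canonical 3′UTR of 2259 nt, of which clusters covered 89.5% with RNase I 0.05/0.05 and 57.6% with RNase T1 1/1.

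Reads on DDX21 gathered in 3 sites of its 3′UTR that all 5 libraries shared. The upstream site, 40 to 359 nt after the stop codon and shown above, had 120.6, 131.9 and 134.2 CPM in the RNase I 0.05/0.05, 0.1/0.025 and 0.05/0.025 libraries and 318.0 and 279.5 CPM in the RNase T1 1/1 and 0.25/0.25 libraries. It was higher in both RNase T1 libraries. The second shared site, 1148 to 1927 nt after the stop codon, differed less, with 248.9 to 288.3 CPM with RNase I, 374.2 with RNase T1 1/1 and 224.7 with RNase T1 0.25/0.25. A shorter site just downstream, 1939 to 2043 nt after the stop codon, had 17.9 to 34.8 CPM with RNase I, 200.5 CPM with RNase T1 1/1 and 142.5 CPM with RNase T1 0.25/0.25, so that the RNase T1 values did not overlap those of RNase I.

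DDX24, DDX18 and DHX33 were the other ribosome biogenesis helicases that were targets in every library. DDX24, which acts in assembly of the large ribosomal subunit, had 83.4, 62.2 and 86.5 CPM in RNase I 0.05/0.05, 0.1/0.025 and 0.05/0.025 and 105.4 and 120.6 CPM in RNase T1 1/1 and 0.25/0.25. Its canonical 3′UTR has 2907 nt, and every 3′UTR cluster in the 5 libraries lay in a single site that ended 271 nt after the stop codon. The remaining 3′UTR held none. DDX18 had 81.3, 43.6 and 37.3 CPM with RNase I in the same order and 127.0 and 60.3 CPM with RNase T1, the electroeluted library being the higher one for each enzyme.

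DHX33, a DEAH box helicase of nucleolar rRNA synthesis, had 148.2, 99.6 and 93.9 CPM with RNase I and 92.5 and 60.3 CPM with RNase T1, with its main site 2523 to 2863 nt after the stop codon in a 3′UTR of 3291 nt. DDX47, which acts in pre-rRNA processing, had 128.3, 109.5 and 126.7 CPM with RNase I but 23.3 and 38.4 CPM with RNase T1. Both RNase T1 values lay below all 3 RNase I values. All 19 clusters of DDX47 also lay on exons that GENCODE gives to APOLD1, so none of its reads can be assigned to DDX47 alone. DDX55 was a target in 4 libraries with 19.5 to 34.8 CPM and had no cluster in RNase T1 0.25/0.25, and DDX27 had no exonic cluster in any library.

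Of the cytoplasmic helicases of mRNA and translation, 7 of 8 had a cluster and 3 were targets in some library, to be read against the same 46.7% and 29.5%. DDX6, a translational repressor and decay factor of P-bodies, had 464.8, 507.8 and 416.0 CPM with RNase I 0.05/0.05, 0.1/0.025 and 0.05/0.025 and 540.1 and 444.0 CPM with RNase T1 1/1 and 0.25/0.25. The 5 values lay within a narrow band. Its 3′UTR, 4345 nt in the canonical transcript and the longest among the 9, held 2 sites found in all 5 libraries, 321 to 777 nt and 2958 to 3102 nt after the stop codon. The upstream one had 129.5 to 141.9 CPM with RNase I and 224.7 and 328.9 CPM with RNase T1.

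DDX3X, a translation factor for mRNAs with structured leaders, had 177.8, 202.9 and 159.5 CPM with RNase I and 181.5 CPM with RNase T1 1/1, and 49.3 CPM from 9 reads with RNase T1 0.25/0.25. Only the smallest library stood apart. Its 69 clusters held 909 reads, of which 99.4% lay in the canonical 3′UTR. DDX1, a member of the tRNA ligase complex, was a target in RNase I 0.05/0.025 alone, with 13 reads, and had no RNase T1 cluster. DHX36, which unwinds G-quadruplexes, had at most 12.96 CPM, and DHX29, which acts in translation initiation on structured mRNAs, at most 5.18.

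**Figure D2:**
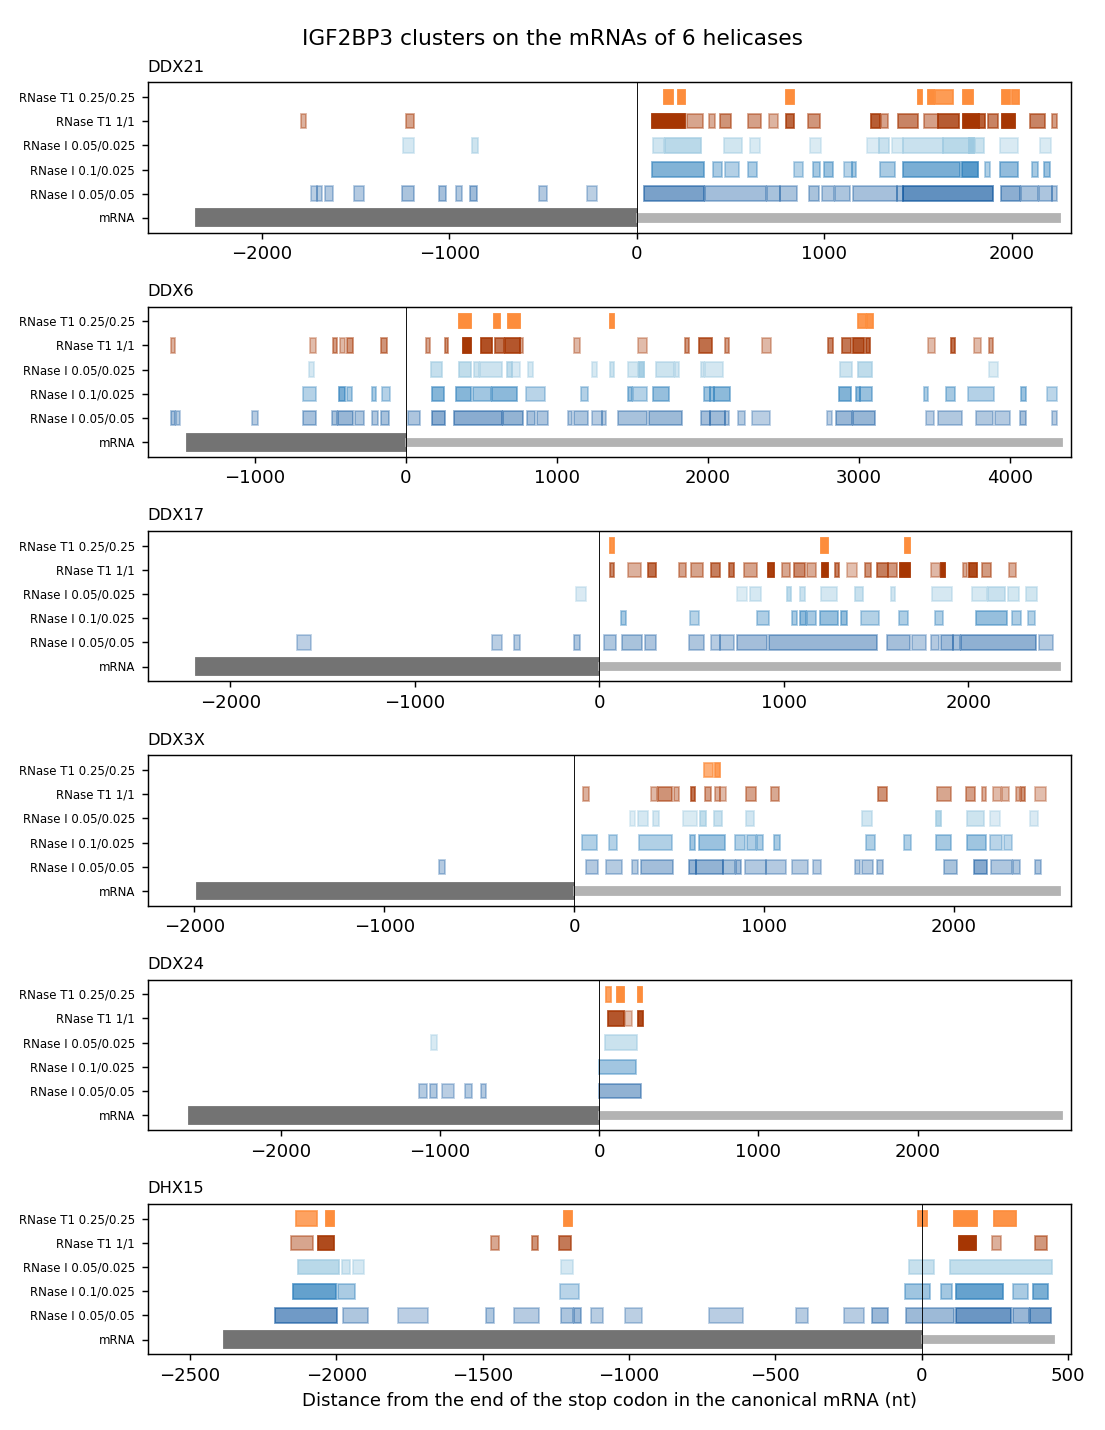
Clusters of the 5 IGF2BP3 libraries (1 row each) on the canonical mRNAs of 6 helicases; the x axis is the distance in nt from the end of the stop codon, the thick bar the coding sequence, the thin bar the 3′UTR, and a darker block has more CPM per nt. DDX24 clusters after the stop codon end at 271 nt, and DHX15 has a block in its coding sequence in every row.

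DDX5 and DDX17 are close paralogs that act as coregulators of transcription, splicing and microRNA processing, and both were targets in every library. DDX17 had 368.3, 204.1 and 207.2 CPM with RNase I and 516.8 and 93.2 CPM with RNase T1, and DDX5 had 199.4, 134.4 and 143.1 CPM with RNase I and 240.2 and 60.3 CPM with RNase T1. In both genes the 2 electroelution libraries were highest and RNase T1 0.25/0.25 was lowest. DDX17 reads lay to 98.4% in its canonical 3′UTR, those of DDX5 to 72.2%, with 24.3% on canonical coding exons and 2.70% outside canonical exons. No cluster of either gene had an exact copy elsewhere in the genome.

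For DDX5 the strongest cluster differed between the electroeluted libraries. With RNase I 0.05/0.05 it lay at chr17:64499731-64500129 across the stop codon, with 103.7 CPM, and with RNase T1 1/1 at chr17:64500606-64500669, with 66.5 CPM, in canonical coding exon 12 of 13, where another DDX5 transcript is annotated with a 3′UTR. In RNase T1 0.25/0.25 all 11 DDX5 reads lay on 29 nt at chr17:64499739-64499767, within the RNase I 0.05/0.05 cluster, so the enzymes did not differ throughout. The other members with this role were weaker. DHX9, a nuclear helicase that resolves double-stranded RNA, had clusters in all 5 libraries at 32.6, 31.1 and 31.3 CPM with RNase I and 12.96 and 27.4 CPM with RNase T1, but was a target only in RNase T1 0.25/0.25, on 5 reads. In RNase I 0.1/0.025 a DHX9 cluster with 14.9 CPM failed at 0.417 conversion events per read. DDX20, a component of the SMN complex, was a target in 2 libraries.

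DHX15, the helicase that takes spliceosomes apart after splicing, stood out among the spliceosomal members, of which 7 of 10 had a cluster and 4 were targets in some library, beside 46.7% and 29.5% of all genes. It had 306.9, 297.5 and 323.5 CPM with RNase I 0.05/0.05, 0.1/0.025 and 0.05/0.025 and 248.9 and 526.2 CPM with RNase T1 1/1 and 0.25/0.25. The RNase I values were close and the RNase T1 values lay on either side of them. Its 3′UTR is short, 452 nt, and held a site in all 5 libraries with 160.4, 178.0 and 210.2 CPM with RNase I and 142.6 and 356.3 CPM with RNase T1.

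DHX15 also carried the only coding-sequence sites that all 5 libraries shared. The stronger one, in exon 2 of 14 and 175 to 492 nt from the start of the coding sequence, had 100.7, 112.0 and 104.4 CPM with RNase I and 68.3 and 120.6 CPM with RNase T1. These values lay close together, with RNase T1 1/1 lowest. The weaker one, in exon 6, had 7.47 to 8.95 CPM with RNase I, 23.3 with RNase T1 1/1 and 49.3 with RNase T1 0.25/0.25. Over the 5 libraries 42.9% of DHX15 reads lay in the canonical coding sequence, the highest share of the 9 targets in every library, of which DDX5 came next with 24.3% and the others had 0.550% to 9.67%. Weaker members had higher shares, such as 69.9% for DHX9, 61.2% for DDX42, 79.6% for DDX56 and all 92 reads of DHX30. Among the remaining spliceosomal genes DDX23, of the U5 snRNP, had 47.8, 28.6 and 19.4 CPM with RNase I and 5.18 and 27.4 CPM with RNase T1, and DDX41 had 22.4 to 32.4 CPM with RNase I and no RNase T1 cluster.

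The other groups are small. Of the mRNA export helicases 3 of 5 had a cluster and none was a target, beside 46.7% and 29.5% of all protein-coding genes. DDX39A had 2 clusters, both in its coding sequence. Of the mitochondrial helicases DHX30 had 4.32 to 25.8 CPM in 4 libraries without a cluster above 10 CPM. Of the RNA sensors DDX60L was a target only with RNase T1 1/1. None of the 4 germ cell helicases had a cluster, beside the same 46.7%. DHX40, whose role is less well known, was a target in 4 libraries with 108.8, 118.2 and 153.6 CPM with RNase I and 54.4 and 54.8 CPM with RNase T1.

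The 14 helicases without an exonic cluster in any IGF2BP3 library were DDX4, DDX11, DDX25, DDX27, DDX28, DDX39B, DDX43, DDX53, DDX59, DHX16, DHX32, DHX35, DHX57 and DHX58. DDX39B, an export and splicing factor, and DHX16, a splicing factor, lie in the MHC region of chromosome 6, taken as 28 to 34 Mb. There 19 of 204 protein-coding genes had a cluster in any library, which is 9.31% against 46.7% of all protein-coding genes. The part of this in their lack of clusters was not tested. At the depth of RNase I 0.05/0.05, 3 reads are 1.27 CPM, so weaker binding was not detectable.

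Helicases that were targets in every library had the longest 3′UTRs by the median. The canonical 3′UTR had a median of 2500 nt in the 9 helicases that were targets in all 5 libraries, 761 nt in the 14 that were targets in 1 to 4, 922 nt in the 17 with clusters that never passed, and 490.5 nt in the 14 without a cluster. Over all protein-coding genes the same classes had medians of 2264, 1567.5, 1249 and 645 nt. DHX15, with 452 nt, was the shortest of the 9, and the classes overlapped. DDX25, with 5965 nt and no cluster, and DDX52, with 4560 nt and a target in 1 library, were longer than all of the 9. Helicases with a cluster in every library were 13, and the 4 of them that were targets in fewer libraries had 3′UTRs of 430 nt (DDX47), 551 nt (DHX9), 716 nt (DDX23) and 1176 nt (DHX40). A longer 3′UTR also gives more sequence in which a cluster can lie.

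**Figure D3:**
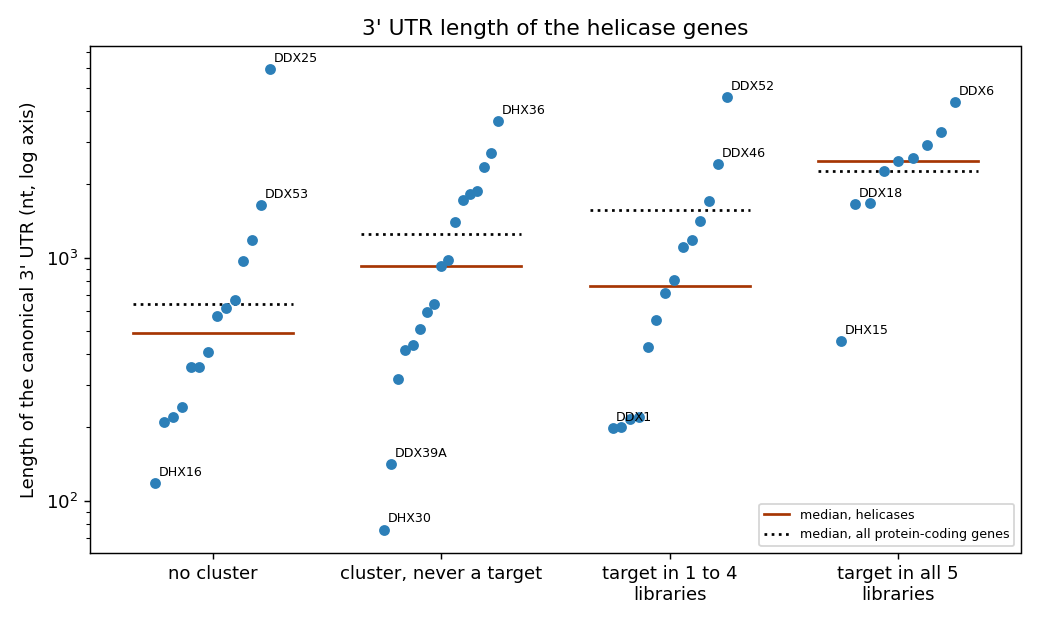
Length of the canonical 3′UTR (nt, log axis) of the 54 helicase genes by class of IGF2BP3 signal, 1 point per gene with some of them named; solid lines are helicase medians and dotted lines medians of all protein-coding genes. The class of targets in all 5 libraries has the highest median, but the classes overlap, and DDX25 and DDX52 of other classes lie above all its points.

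Most helicase reads lay in 3′UTR clusters. The share was 86.6% (95% interval 85.8 to 87.4) with RNase I 0.05/0.05, 90.5% (89.2 to 91.7) with RNase I 0.1/0.025 and 92.0% (90.6 to 93.2) with RNase I 0.05/0.025. With RNase T1 it was 92.1% (91.2 to 92.9) in the 1/1 library and 91.3% (88.3 to 93.7) in the 0.25/0.25 library. Over all protein-coding genes it was 86.1%, 88.0% and 87.1% with RNase I in the same order, and 90.7% and 91.3% with RNase T1. The helicase interval lay above the share of all genes in RNase I 0.1/0.025, RNase I 0.05/0.025 and RNase T1 1/1. It included that share in RNase I 0.05/0.05 and RNase T1 0.25/0.25. These intervals count reads and leave out the spread between genes. Over the 5 libraries DDX21 held 3486 and DDX6 2491 of the 15469 helicase reads. A cluster touching a 3′UTR of any protein-coding transcript was counted there. Where coding sequence was put before 3′UTR the helicase share fell to 76.2% with RNase I 0.05/0.05 and was 83.5% to 88.6% in 3 further libraries.

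The coding-sequence reads of helicases were 6.97% to 12.8% of their reads, and RNase I 0.05/0.05 was highest, as it was over all genes, where coding sequence took 7.59% to 12.98%. Per kb the contrast was stronger. Summed over the helicases and divided by the length of their canonical features, 3′UTR clusters had 29.2 to 44.8 CPM per kb and coding-sequence clusters 1.47 to 2.99 CPM per kb. With canonical 3′UTRs of at least 500 nt cut into 3 equal parts, the part nearest the 3′ end took 33.4% to 35.5% of helicase 3′UTR reads and 24.2% to 25.8% over all genes. The middle part took 6.82% to 24.2% in helicases and 28.8% to 32.2% over all genes. The helicase shares come from 11 to 26 genes per library. Counted by cluster and not by read, the median position in the 3′UTR differed little in the electroeluted libraries, at 41.7% of its length in helicases and 42.4% over all genes with RNase I 0.05/0.05, and 41.5% and 42.6% with RNase T1 1/1. With RNase T1 0.25/0.25 it was 31.4% and 39.5%, from 31 helicase clusters.

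**Figure D4:**
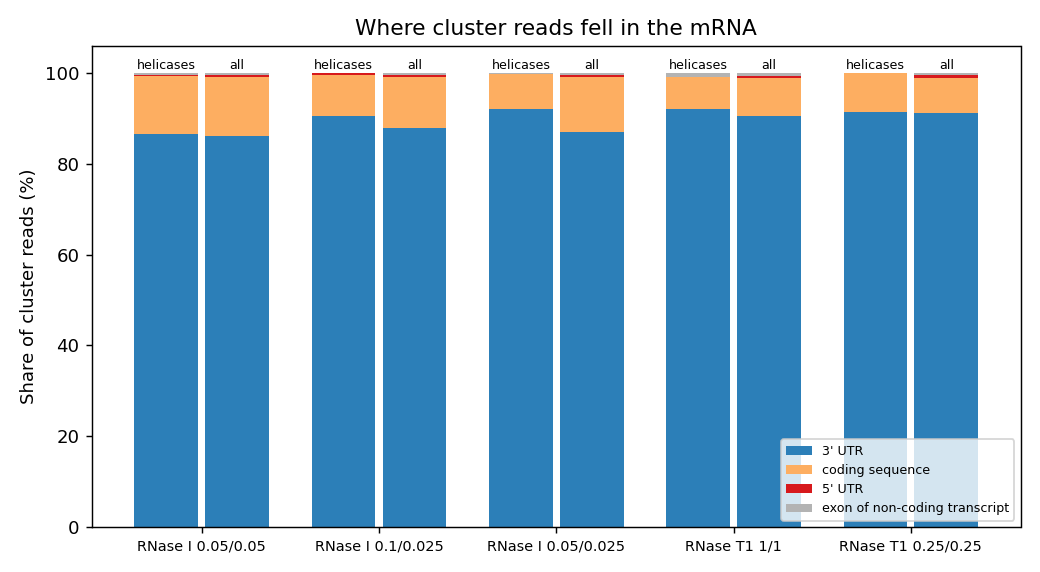
Share of cluster reads (%) by mRNA feature in each IGF2BP3 library, for helicases (left bar) and all protein-coding genes (right bar); a cluster counted as 3′UTR, coding sequence, 5′UTR or non-coding exon, in that order. The 3′UTR part is 86.6% to 92.1% for helicases.

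The enzymes were compared within the gel extraction they shared. In the electroeluted pair, 31 helicases had at least 20 reads together, and 9 had at least 2-fold more CPM with RNase I 0.05/0.05, where 25.2% of 7342 protein-coding genes did. With RNase T1 1/1 2 of 31 had at least 2-fold more, where 15.6% of genes did. The median ratio of RNase I to RNase T1 was 1.23 for the helicases and 1.07 for all genes. The helicase share for RNase I was 29.0%, near the background, and that for RNase T1 was 6.45%. The 9 helicases that were targets in every library all lay between the fold limits. Of the other 4 with a cluster in every library, DDX23, DDX47 and DHX9 were past the limit for RNase I.

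The 9 with more RNase I signal were DDX1, DDX23, DDX41, DDX47, DDX56, DDX60, DHX9, DHX30 and DHX34. DDX23 had 113 reads on 604 nt with RNase I and 6 reads on 37 nt with RNase T1, a CPM ratio of 9.23 (95% interval 4.11 to 25.7). DHX30 had 61 and 5 reads, a ratio of 5.98 (2.43 to 19.1), and DDX47 had 303 and 27 reads, a ratio of 5.50 (3.70 to 8.48). DDX41 had 53 reads and none, which is 8.65-fold higher with RNase I against a floor of 3 reads in the RNase T1 library. By the same floor DDX1 was 7.18-fold and DDX56 6.53-fold higher. Lower limits from the counts were smaller, at 6.795 for DDX41 and 5.07 for DDX56, with that of DDX1 between them. These intervals and limits cover reads of 2 libraries, not the spread between repeated libraries.

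The 2 with more RNase T1 signal were DDX50, with 6 and 30 reads, and DDX19A, with 11 and 14. DDX50, the nucleolar paralog and chromosomal neighbour of DDX21, had 10.2-fold more CPM with RNase T1 1/1 (4.18 to 29.998), of which 22 reads came from 1 coding-sequence cluster. DDX19A had 2.60-fold more (1.096 to 6.32), but 9 of its 14 RNase T1 reads lay in a cluster with an exact copy in DDX19B, and all 5 of its clusters also lay on exons of another protein-coding gene, ENSG00000260537. With clusters on 1 protein-coding gene only, DDX50 alone was called higher with RNase T1. Next came DDX21 at 1.81-fold (1.68 to 1.96), DDX60L at 1.64-fold (1.102 to 2.43) and DDX18 at 1.56-fold (1.25 to 1.95), none of them past 2-fold. When the strongest cluster of each gene was compared in place of the sum, 8 helicases were higher with RNase I and 6 with RNase T1, where 20.2% and 23.5% of all genes were.

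Pooled G content moved with the enzyme ratio, with little helicase sequence at the RNase T1 end. Clusters of RNase I 0.05/0.05 on the 9 helicases with more RNase I signal held 22.1% G, those on the 20 helicases between the limits 19.2% and those on the 2 with more RNase T1 signal 15.7%. Over all genes the same classes held 22.0%, 18.9% and 15.5%. The helicase value of 15.7% came from 1 cluster of 36 nt in DDX50, with 8.33% G, and 1 of 66 nt in DDX19A, with 19.7%. Among the 9 the values ran from 15.1% in DDX60 to 27.3% in DDX56, so the ranges overlapped with the 12.2% to 22.0% of the uncalled helicases. Whether G content has a part in the ratio was not tested. Clusters also ended differently, with G as the last base in 94.9% of helicase clusters of RNase T1 1/1 and 89.7% of RNase T1 0.25/0.25, but in 13.2% to 14.05% with RNase I.

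**Figure D5:**
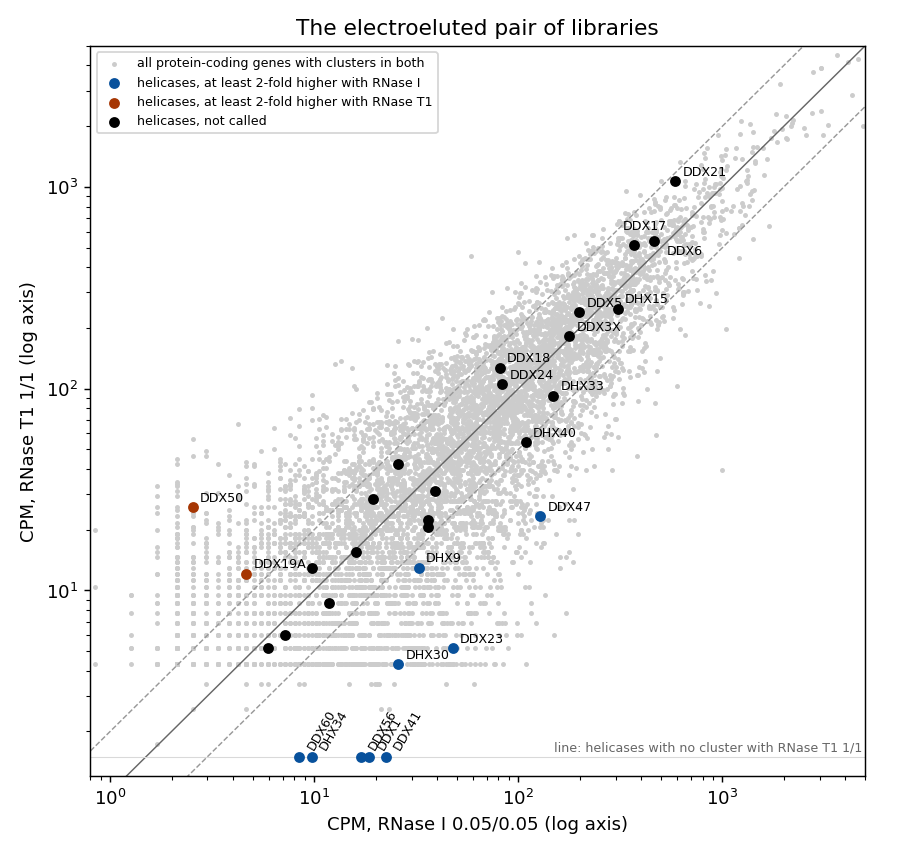
CPM per gene with RNase I 0.05/0.05 (x, log axis) and RNase T1 1/1 (y, log axis), for all protein-coding genes with clusters in both (grey) and the 31 helicases with at least 20 reads together; dashed lines mark 2-fold. Of the 9 helicases called higher with RNase I, 5 have no RNase T1 1/1 cluster and are drawn on the line at the bottom.

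In the crushed-gel pair 16 helicases could be compared. RNase I 0.1/0.025 was at least 2-fold higher in 6, where 33.6% of 4316 genes were, and RNase T1 0.25/0.25 was higher in none, where 6.28% of genes were. The 6 were DDX3X at 4.11-fold (2.11 to 9.15), DDX47 at 2.85-fold, DDX5, DDX17 and DHX40 at 2.16-fold to 2.23-fold, and DDX55. DDX55 had 28 reads and none, which is 2.12-fold against the floor of 3 reads, with a lower limit of 1.61 from the counts. Of the 6, DDX47 was the only one called in the same direction in the electroeluted pair, and all its clusters also lay on APOLD1 exons. DHX40 lay just under the limit in that pair, at 1.998-fold (1.51 to 2.68). In 3 helicases the interval lay wholly on the side of RNase T1 without reaching 2-fold. DDX24 had 1.94-fold more CPM with RNase T1 (1.12 to 3.26), DHX15 1.77-fold more from 239 and 96 reads (1.38 to 2.25), and DDX21 1.38-fold more (1.12 to 1.69). The median over all genes in this pair was 1.46 and not 1. With ratios centred on it the direction turned, with RNase I higher in 1 helicase, DDX3X, and in 18.2% of all genes, and RNase T1 higher in 4, DDX18, DDX21, DDX24 and DHX15, and in 17.8% of all genes. It turned also for the strongest cluster of each gene, where RNase I was higher in 1 helicase and in 7.46% of all genes, and RNase T1 in 4 helicases and in 20.9% of all genes.

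Both RNase I crushed-gel libraries gave much the same picture of the helicases. At 0.1 and 0.05 U/µL in the lysate the median ratio over 20 helicases was 0.998, and it was 1.04 over 4983 genes. DDX52 was 3.20-fold higher in the 0.1/0.025 library (1.27 to 9.61, 23 and 6 reads), where 9.87% of genes were at least 2-fold higher. DHX30 was 2.26-fold higher in the 0.05/0.025 library, with an interval that includes 1 (0.954 to 5.76), where 5.50% of genes were. DDX21 had a ratio of 1.00 (0.865 to 1.16), DDX17 of 0.985 (0.781 to 1.24) and DDX6 of 1.22 (1.05 to 1.43).

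Helicase clusters overlapped between libraries about as clusters in general did in the electroeluted pair and less in the crushed-gel pair. Of the 177 helicase clusters of RNase T1 1/1, 82.5% (76.2 to 87.4) overlapped one of RNase I 0.05/0.05, against 76.9% over all genes, and in the other direction 37.6% (32.3 to 43.2) of 298 did, against 38.1%. Of the 39 helicase clusters of RNase T1 0.25/0.25, 76.9% (61.7 to 87.4) overlapped one of RNase I 0.1/0.025, against 89.8% over all genes, and in the other direction 15.3% (10.3 to 22.05) of 144 did, against 22.3%. With RNase I 0.05/0.025, also from crushed gel, the same 39 clusters overlapped at 84.6% (70.3 to 92.8), against 85.0% over all genes. In the other direction 22.3% (15.8 to 30.5) of 121 did, against 25.3%, so the lower overlap was not clear there. Helicase clusters had a median of 51 to 55 nt with RNase I and 37 nt with both RNase T1 libraries. They carried 0.635 to 0.657 conversion events per read with RNase I and 0.480 to 0.531 with RNase T1, where all genes had 0.608 to 0.651 and 0.512 to 0.552.

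In both electroeluted libraries helicase clusters held CATT about as often as clusters of all genes. CATT was found in 40.9% (35.5 to 46.6) of the helicase clusters of RNase I 0.05/0.05 and 33.9% (27.3 to 41.1) of RNase T1 1/1, where clusters of all protein-coding genes had 39.5% and 35.2%. CAGT was found in 31.5% (26.5 to 37.0) and 16.4% (11.7 to 22.5), where all had 34.9% and 11.8%. Only the RNA strand of the cluster was searched. Fewer RNase T1 1/1 clusters held CAGT both in helicases and over all genes, but RNase T1 clusters were also shorter. Whether cuts of RNase T1 after the G of CAGT have a part in this was not tested. In windows of the 30 central nt, which have equal length, CATT was in 20.3% and 31.4% of helicase windows in these libraries and in 21.4% and 28.5% of all. In RNase T1 0.25/0.25 it was in 12 of 25 helicase windows, 48.0% (30.03 to 66.5), and in 29.5% of all, while its whole clusters held CATT in 38.5% for helicases and 40.0% for all genes. CAGT was in 15.0% of helicase windows with RNase I 0.05/0.05, 15.7% with RNase T1 1/1 and 20.0% with RNase T1 0.25/0.25. Over all genes it was in 17.3%, 10.8% and 14.5%. At equal length CAGT was thus lower with RNase T1 over all genes. The helicase intervals were 11.2 to 19.8 with RNase I 0.05/0.05, 10.3 to 23.2 with RNase T1 1/1 and 8.86 to 39.1 with RNase T1 0.25/0.25. Both RNase T1 intervals included the share of all genes, so a departure of the helicases was not clear.

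Counted over every run common to the 5 libraries, 8 of the 16 shared sites held CATT, 3 of them also CAGT, and 8 held neither. The 3 with CAGT were the second DDX21 site, the upstream DDX6 site and the DHX15 3′UTR site. At the second DDX21 site, whose stretch above held neither, the common runs held CATT 2 times and CAGT 2 times. The upstream DDX21 site and the DHX15 exon 2 site held CATT 4 times each. DDX17, DDX24 and DDX3X had none at their shared sites, though the common runs were only 31 to 66 nt long there. Larger windows hold more tetramers by length alone, so these counts are a description of the sites.

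Paralogs with near-identical mRNAs could not all be told apart. DDX3Y had 2 clusters, of 16 and 6 reads, whose sequence is also found in DDX3X under clusters of 81 and 33 reads, so that the DDX3Y reads may come from DDX3X. DDX19A and DDX19B shared 2 cluster sequences with the same counts, 5 reads at both genes in RNase I 0.05/0.025 and 9 at both in RNase T1 1/1. In total 26 of 779 helicase clusters, with 1.40% of the reads, had an exact copy elsewhere in GRCh38. Without them 9 helicases were still targets in all 5 libraries and no single library's count of target helicases moved.

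Some helicases outside the naming rule and some helicase partners were targets too, where 9.91% of all genes were targets in all 5 libraries. Of 7 further DEAD or DEAH box genes, EIF4A1, EIF4A2 and EIF4A3 were targets in all 5 libraries and no other was a target in any. EIF4A1, the cap-complex helicase, had 314.9, 265.1 and 338.4 CPM with RNase I 0.05/0.05, 0.1/0.025 and 0.05/0.025 and 134.8 and 153.5 CPM with RNase T1 1/1 and 0.25/0.25, so that all RNase I values exceeded the RNase T1 values. Of 14 RNA helicases of other families 1, HELZ, was a target in all 5 libraries. Of 19 cofactors 7 were, among them EIF4B, EIF4G1 and EIF4H, which work with EIF4A, and PATL1 and LSM14A, which bind DDX6.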

How the data were processed

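IGF2BP3 IR-PAR-CLIP clusters of HCT116 cells were analysed in 5 libraries and 1 IgG library, 1 per condition. The authors removed duplicates by UMI with UMI-tools 1.1.1, selected reads by length with Trimmomatic 0.30, aligned them to GRCh38.p13 with Bowtie 0.12.7, and called clusters per library with PARalyzer, after demultiplexing with bcl2fastq 2.20.0.422. What was deposited for each cluster are raw counts, of its reads and of its converted and unconverted events. The deposited mode score, a fraction from 0 to 1, was not used.

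All 244645 cluster sequences equalled GRCh38. Clusters were given to GENCODE 44 protein-coding genes by a same-strand exon overlap of at least 1 nt, also to several genes. CPM is reads per 1000000 cluster reads of the library, not of mapped reads, which were not analysed here. Shares have Wilson and ratios exact binomial 95% intervals, for counting error only. Copies of helicase cluster sequences were searched in the whole genome. Ratios needed 20 reads in both libraries together. Canonical transcripts are those GENCODE tags, and exon length is the union of all exons of a gene.

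The helicases and all gene lists were chosen with earlier results of these data known. Named were the targets in all 5 libraries, the 5 with most reads in each electroeluted library, the 5 largest ratios either way, 5 paralog pairs and the helicases without cluster; further members were added after their values were seen. Alternatives changed the thresholds, the gene and feature assignment, the ratio and the clusters searched; the canonical-transcript assignment and the removal of copied sequences were chosen after seeing the data. The rules recovered the changes put into simulated data. Intervals used scipy 1.17.1, tables pandas 2.3.3 with numpy 2.4.6, and plots matplotlib 3.10.9, under Python 3.11.15. The methods give the lysate concentration of the RNase I 0.1/0.025 library differently in 1 place; the labels were followed.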

Additional observations from a re-analysis of the deposited data

How the results depend on the processing

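No paired analysis was possible because every condition has 1 library. The settings were compared by counts and shares, without a test.

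With more than 5 CPM the target helicases rose to 23 in RNase I 0.05/0.05 and 28 in RNase I 0.1/0.025, and with more than 20 CPM they were 10 in RNase I 0.05/0.025 and 7 in RNase T1 1/1. At least 20 reads in place of CPM left 10 in RNase I 0.05/0.025, 1 in RNase T1 0.25/0.25 and 1 in every library, where 10.5%, 2.52% and 2.23% of all genes were left. More than 0.75 conversion events per read left 8 in RNase I 0.05/0.05, 7 in RNase I 0.05/0.025, 6 in each RNase T1 library and 1 in every library. It left 6.73% and 11.5% of all genes in these RNase I libraries. The shares of all genes were 7.31% in RNase T1 1/1, 7.89% in RNase T1 0.25/0.25 and 1.16% in every library. Fold calls moved too. In the electroeluted pair the helicases higher with RNase T1 1/1 were 6 by the top cluster, 0 with at least 50 reads, 1 at 3-fold and 1 with clusters on 1 protein-coding gene only, and those higher with RNase I were 5 with at least 50 reads. All genes had 23.5%, 13.2%, 6.76% and 16.2% with RNase T1 in that order, and 21.7% with RNase I. In the crushed-gel pair RNase I was higher in 1 by the top cluster, 1 at 3-fold and 1 with ratios centred on the median gene, and RNase T1 in 4 by the top cluster and 4 with centred ratios. All genes had 7.46%, 17.5% and 18.2% with RNase I in that order, and 20.9% and 17.8% with RNase T1. Between RNase I 0.1/0.025 and 0.05/0.025, 2 were higher with 0.05/0.025 by the top cluster, 0 in either direction with at least 50 reads, and 0 with 0.05/0.025 at 3-fold. The shares of all genes higher with 0.05/0.025 were 6.86%, 1.96% and 2.09% in that order. With at least 50 reads 4.79% of genes were higher with 0.1/0.025.

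With coding sequence before 3′UTR the 3′UTR share was 76.2% in RNase I 0.05/0.05, 83.5% in 0.1/0.025, 85.3% in 0.05/0.025 and 88.6% in RNase T1 1/1. Counting clusters in place of reads gave 72.5%, 88.9%, 88.4% and 85.3% in the same order, and the canonical transcript alone, chosen after seeing the data, 82.4%, 87.2%, 88.7% and 88.8%. Over all protein-coding genes the canonical transcript alone gave lower shares, 78.9%, 80.7%, 79.4% and 85.3%. In clusters of more than 10 CPM CATT was in 65.5% and CAGT in 61.8% with RNase I 0.05/0.05, 54.5% and 50.0% with RNase I 0.1/0.025, and CAGT in 23.0% with RNase T1 1/1. Clusters extended by 10 nt gave 47.7% for CATT in RNase I 0.05/0.05 and 23.7% for CAGT in RNase T1 1/1. Of all alternatives run 77 left the result within its limits and 45 moved it.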

Other observations

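DDX60L carried most of its signal outside annotated exons. DDX60L, a homologue of the antiviral helicase DDX60, had 79.8%, 83.3% and 50.0% of its reads in introns in the RNase I 0.05/0.05, 0.1/0.025 and 0.05/0.025 libraries and 80.6% in RNase T1 1/1, and no cluster in RNase T1 0.25/0.25. The share of 50.0% rests on 5 intronic and 5 exonic reads. These reads gathered in a block at chr4:168482791-168489069 on the minus strand of GRCh38, 6279 nt long, with 39 clusters and 401 reads, of which 21 clusters came from RNase I 0.05/0.05, 14 from RNase T1 1/1, 3 from RNase I 0.1/0.025 and 1 from RNase I 0.05/0.025. No same-strand exon of GENCODE overlapped a cluster of the block, whose gaps were not searched. The nearest DDX60L exon upstream is 20 nt away and the nearest DDX60L exon downstream 2276 nt away. A second block at chr4:168517853-168530071 held 12 clusters and 78 reads. Of the other helicases only DDX27, DDX46 and DHX15 had an intronic cluster, 1 each, with 8, 5 and 5 reads. What RNA the DDX60L blocks belong to was not tested.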
